A study of Bombyx mori with 2 samples.

Results

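Among the spliced loci assembled from the wing buds of the silkworm *Bombyx mori*, 72 of 10321 had at least 2-fold more transcript in the forewing bud than in the hindwing bud by each of 3 measures. These 72 loci are described here. They were selected on the measured values themselves, so their levels and ratios are a description and were not tested. Of the 72, 22 shared exon bases with a locus of the opposite strand and 11 others had a locus of their own strand ending or starting within 100 bases of their ends. Close loci without an assigned strand were counted as same-strand throughout. The other 39 had neither kind of partner and are called lone loci, although most had further loci on their scaffold. When a locus was summed with such partners, 43 of the 72 remained at least 2-fold higher in the forewing by all 3 measures. These 43 include all 39 lone loci, which had no partner to add. Of the loci with a partner, 1 of the 22 and 3 of the 11 remained. No annotation of these scaffolds was used here, so gene names and functions are not given and each locus is identified by its scaffold, strand, start and end.

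Wing buds are sheets of larval epithelium that later form the adult wings, those of the forewing being on the middle segment of the thorax and those of the hindwing on the hind segment. The Hox protein Ubx is known to set the hindwing apart from the forewing in insects, and it both activates and represses genes in the hind thoracic segment. A dissected bud holds wing epithelium together with the tracheae, nerves and blood cells that reach it.

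Total RNA was extracted from buds of the Daizo race in the fourth instar, fed on mulberry leaves, and 80 buds were pooled for each of the 2 libraries. The forewing and the hindwing library carried no other difference in strain, stage or treatment per the labels. There was 1 library per wing bud and hence no replicate, so no difference below has a measure of animal-to-animal spread and no p-value is given. The kit does not mark strand, and in bulk tissue fewer cells of a type and less RNA per cell cannot be told apart. Estimated depth was 43528000 fragments for the hindwing and 37193000 for the forewing library, and the median log2 ratio over all kept loci was 0.03 by FPKM and 0.01 by FPM. The tissue labels could not be checked against marker genes.

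Transcripts of both assemblies were joined into 25992 loci where exons shared a base on a strand, and 10423 of these had a multi-exon transcript in both. The 10321 with at least 1 FPKM (fragments per kilobase of transcript and 1000000 fragments) in a library were kept. The first measure was the deposited FPKM summed over the locus, the second the summed midpoint of the deposited interval, and the third FPM, the fragments per 1000000 estimated from midpoint and assembled length. A member had a log2((hindwing + 1)/(forewing + 1)) of -1 or less by all 3. This held for 72 loci, which is 0.698% of those kept, and the opposite direction held for 69 loci (0.669%). By a single measure far more loci passed in the forewing direction, namely 562 by FPKM (5.45%), 486 by midpoint (4.71%) and 186 by FPM (1.8%). FPM was the narrowest gate. It alone kept out 367 loci, FPKM alone kept out 21 and the midpoint alone 1.

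**Figure D1:**
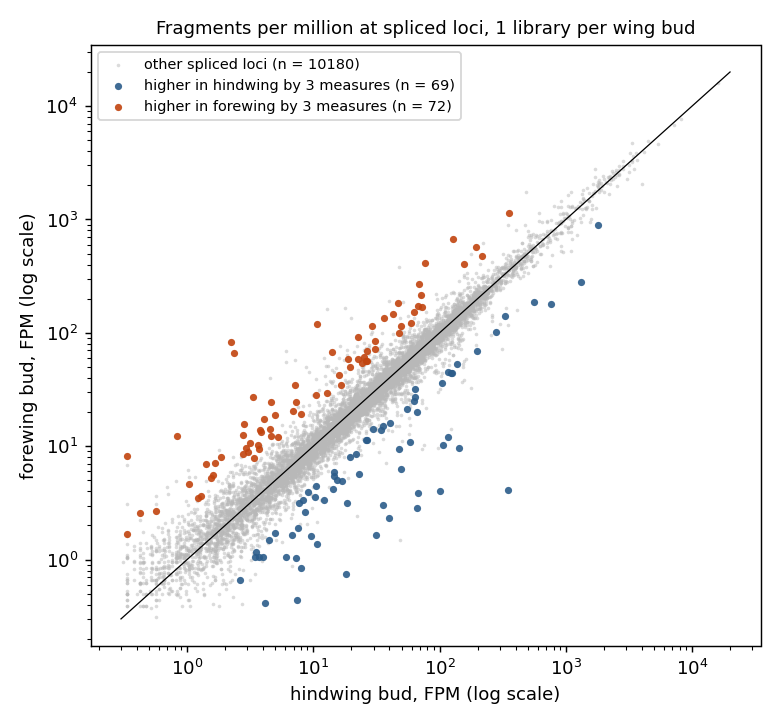
Fragments per 1000000 (FPM) in the hindwing library (x axis) and the forewing library (y axis), both on log scales, for the 10321 kept spliced loci; each point is a locus and the line marks equal values. The 72 loci higher in the forewing by all 3 measures lie above the line from 1.69 to 1131 FPM in the forewing, and the 69 higher in the hindwing lie below it.

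The forewing-higher loci were of moderate abundance and moderate difference. Their forewing FPKM had a median of 34.5 (3.16 to 816) and their hindwing FPKM a median of 8.06 (0.63 to 301). The deposited intervals of the 2 libraries were apart at all 72 loci, as the selection on FPKM and on the midpoint of these intervals largely required. They were apart at 46.3% of all kept loci. The deposited FPKM exceeded its own upper bound at 15 of the 72 in the forewing and at 16 in the hindwing. By the smallest of the 3 ratios the forewing was higher by a median of 2.49-fold, with a range of 2.01 to 6.94. Only 4 loci reached 4-fold by all 3 measures, against 20 of the hindwing-higher loci, whose range ran to 19.7-fold. At 3-fold the counts were 18 and 20. Together the 72 loci held 0.717% of the fragments of the forewing library and 0.226% of those of the hindwing library, and 2 of them were among the 200 kept loci with most fragments.

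The 39 lone loci shared no exon base with another locus, and no same-strand locus ended or started within 100 bases of their ends, a limit chosen after the values were seen. A lone locus may still lie inside an intron of another, as 1 of them did. They were 0.506% of the 7700 kept loci of that kind. Their forewing FPM had a median of 20.5 with a maximum of 572, and their hindwing FPM a median of 6.87 with a range of 0.425 to 217. The 22 loci that shared exon bases were more abundant, with a median of 118 FPM in the forewing and 32.8 in the hindwing. The 11 with a close same-strand locus were the least abundant, with medians of 7.93 and 1.29 FPM.

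**Figure D2:**
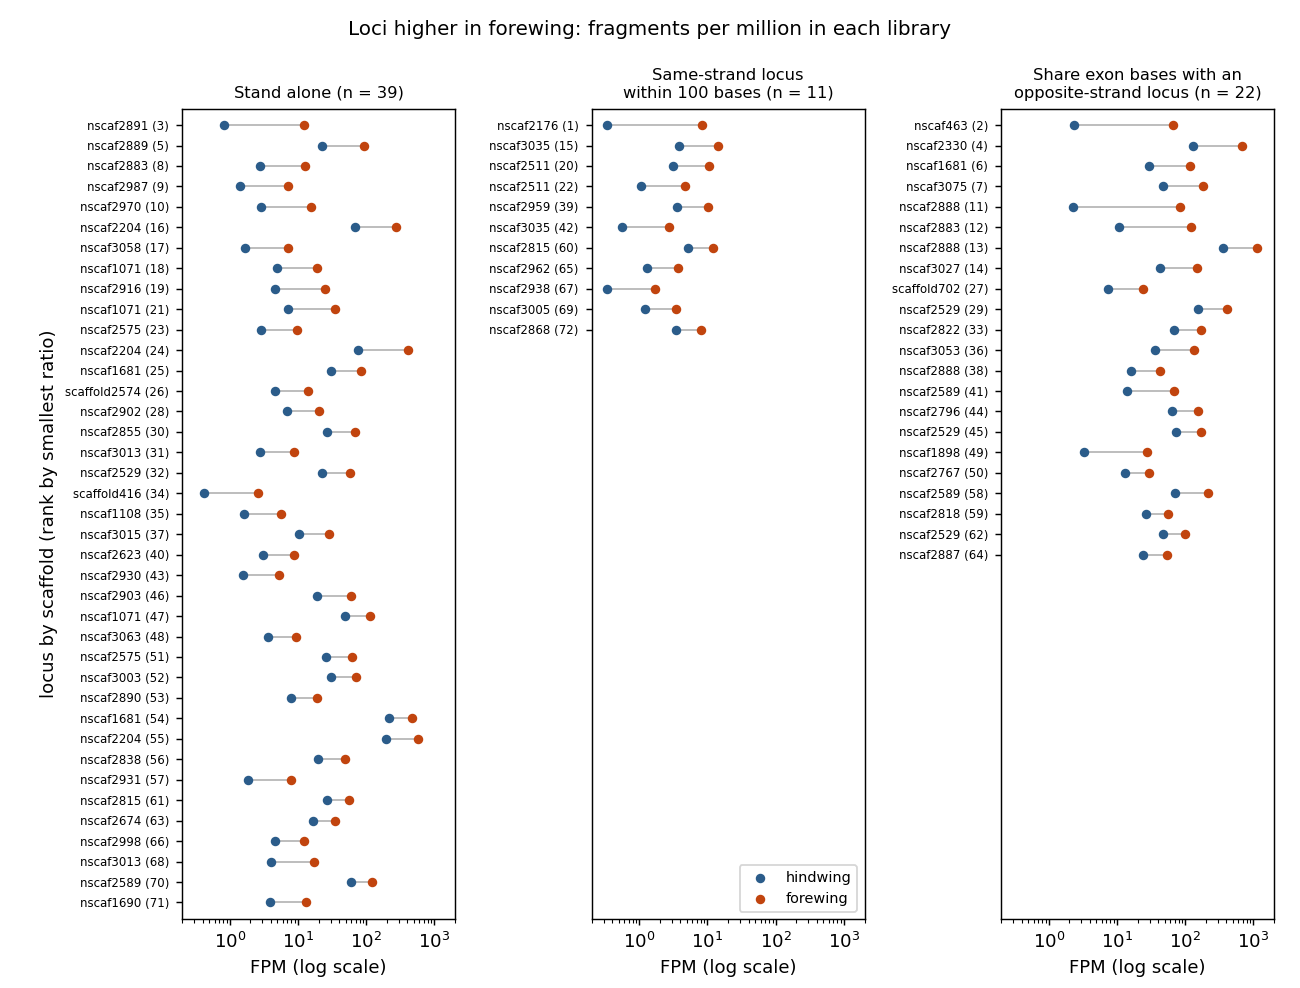
FPM (log scale) of each of the 72 forewing-higher loci in the hindwing (blue) and forewing (orange) library, 1 library each, in 3 panels by their relation to other loci and ordered by rank of the smallest ratio. The 39 loci that stand alone lie between 0.425 and 572 FPM over both libraries, the 22 that share exon bases with an opposite-strand locus lie mostly at high FPM, and the 11 with a close same-strand locus lie at the low end, with a forewing median of 7.93 FPM.

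Of the 39 lone loci, 28 had the same introns in both assemblies, 22 had assembled lengths within 1.2 times of each other, and 17 had both. Among all 7700 kept loci without a partner the counts were 5009, 4829 and 3694, so these traits were not particular to the members. In these 17, the exon bases common to both assemblies were 52.7% to 99.97% of their union, and 16 of the 17 had an intron chain in common. An example with many exons was nscaf1681:1389755-1411831 on the plus strand, with 9 exons in both libraries, at 44.8 FPKM in the forewing and 14.4 in the hindwing. Its FPM was 85.1 against 30.9. The locus nscaf2838:901810-908985 (plus strand) had 8 exons in both and 41.0 against 18.7 FPKM. A 7-exon locus, nscaf2890:523508-531595 (minus strand), stood at 13.6 against 5.24 FPKM, and the 6-exon locus nscaf2575:258538-265644 (minus strand) at 21.5 against 9.32. A longer 6-exon locus, nscaf2589:3193722-3217145 (plus strand), had 42.5 and 20.5 FPKM. The low end was nscaf2930:2452622-2471803 (plus strand), with 7 exons and 4.47 against 1.34 FPKM. By the smallest ratio these 17 loci were 2.02- to 3.04-fold higher in the forewing, so none of the 4-fold loci was among them.

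The further loci of these 17 given in this paragraph ranged from 5.58 to 71.5 FPM in the forewing. The rest, at up to 475 FPM, are described below with their neighbours. At nscaf2855:5102293-5106327 (plus strand) there were 7 exons in the forewing and 6 in the hindwing, with 69.1 against 26.4 FPM and 2 intron chains in each library, none of them shared. The 5-exon locus nscaf2998:1394145-1416006 (plus strand) had 12.4 against 4.62 FPM, and the 4-exon locus nscaf2623:1544073-1547331 (minus strand) 8.86 against 3.06. At 2 exons, nscaf3003:4059733-4069625 (minus strand) had 71.5 and 30.7 FPM and nscaf2902:11177609-11180409 (minus strand) 20.5 and 6.87, with assembled lengths of 1649 and 1583 bases at the first and 1719 and 1734 at the second. Others rested on short transcripts. The locus nscaf1108:2364028-2366311 (plus strand) had 264 assembled bases in the forewing and 259 in the hindwing, with 5.58 against 1.62 FPM from 207.5 and 70.5 estimated fragments. At nscaf3058:9024565-9061947 (plus strand), 222 and 203 bases were assembled over 37.4 kb, with 7.14 against 1.68 FPM from 265.5 and 73.0 fragments. The locus scaffold2574:6-1238 (plus strand) was the only member that was the sole kept locus of its scaffold, with 14.2 against 4.58 FPM.

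The lone locus with the greatest difference was nscaf2891:1208057-1215877 on the minus strand. It had 11.5 FPKM (interval 9.17 to 11.7) in the forewing and 1.41 (0.845 to 1.97) in the hindwing, or 457 against 36.1 estimated fragments, and it was the only 4-fold locus among the lone loci. The assembled forms differed, with 7 exons in the forewing and 6 in the hindwing, 2 introns only in the forewing and 1 only in the hindwing. More alike in form was nscaf2970:146676-192866 (plus strand), a locus of 8 exons over 46.2 kb with the same introns in both libraries. Its FPKM was 9.03 (7.57 to 9.40) in the forewing and 1.95 (1.46 to 2.30) in the hindwing, from 579.5 and 124 estimated fragments. The highest FPKM of all 72 was at nscaf2204:2952337-2953537 (minus strand), a 3-exon locus of 1201 bases with 816 FPKM in the forewing and 301 in the hindwing. Its FPM was 414 against 76.7, with the same introns but an assembled length of 502 bases in the forewing and 255 in the hindwing. The longest locus, nscaf2987:130515-224120 (minus strand), spanned 93.6 kb with only 196 assembled bases in the forewing and 498 in the hindwing, and had 7.03 against 1.41 FPM. Among the smallest was nscaf2883:32769-33222 (minus strand), with 2 exons over 454 bases and 12.6 against 2.79 FPM. The locus scaffold416:288147-288600 (minus strand), also of 454 bases, was the only one nested in an intron of another locus and rested on 96.7 forewing and 18.5 hindwing fragments.

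At 2 loci of nscaf1681 on the plus strand the next spliced locus was also a member. The 9-exon locus described above ended 392 bases before a 2-exon locus, nscaf1681:1412224-1415856, which had 475 FPM in the forewing and 217 in the hindwing. By FPKM the second locus stood at 134 (132 to 138) against 61.3, and 99.97% of the exon bases were common to both assemblies. No intron joined the pair in either assembly, and whether they are pieces of 1 transcript was not tested. The next spliced locus on the left had 5.20 against 4.11 FPM but 2.91 against 1.21 FPKM, with a log2 ratio of -0.28 by FPM and -0.82 by FPKM. On the right the values were 725 against 623 FPM and 223 against 206 FPKM.

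The locus with most exons was nscaf2204:1772513-1864063 (plus strand), which spanned 91.6 kb with up to 21 exons and had 572 FPM in the forewing and 193 in the hindwing. Each assembly held 3 intron chains, and 2 of them were in both. The 19-exon chain had 36.1 FPKM in the forewing and 22.7 in the hindwing, and the 21-exon chain 29.7 and 20.4, so each shared chain alone was below 2-fold per length. By FPM they had 197 against 79.4 and 164 against 73.2, so by that measure each was above 2-fold. The most abundant forewing form was a 12-exon chain with 48.4 FPKM that began within the locus and was not assembled in the hindwing. The hindwing had an 18-exon chain of its own with 9.44 FPKM. All 3 forewing forms ended in a longer last exon, and the 21-exon chain was 5470 bases long in the forewing and 3588 in the hindwing.

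**Figure D3:**
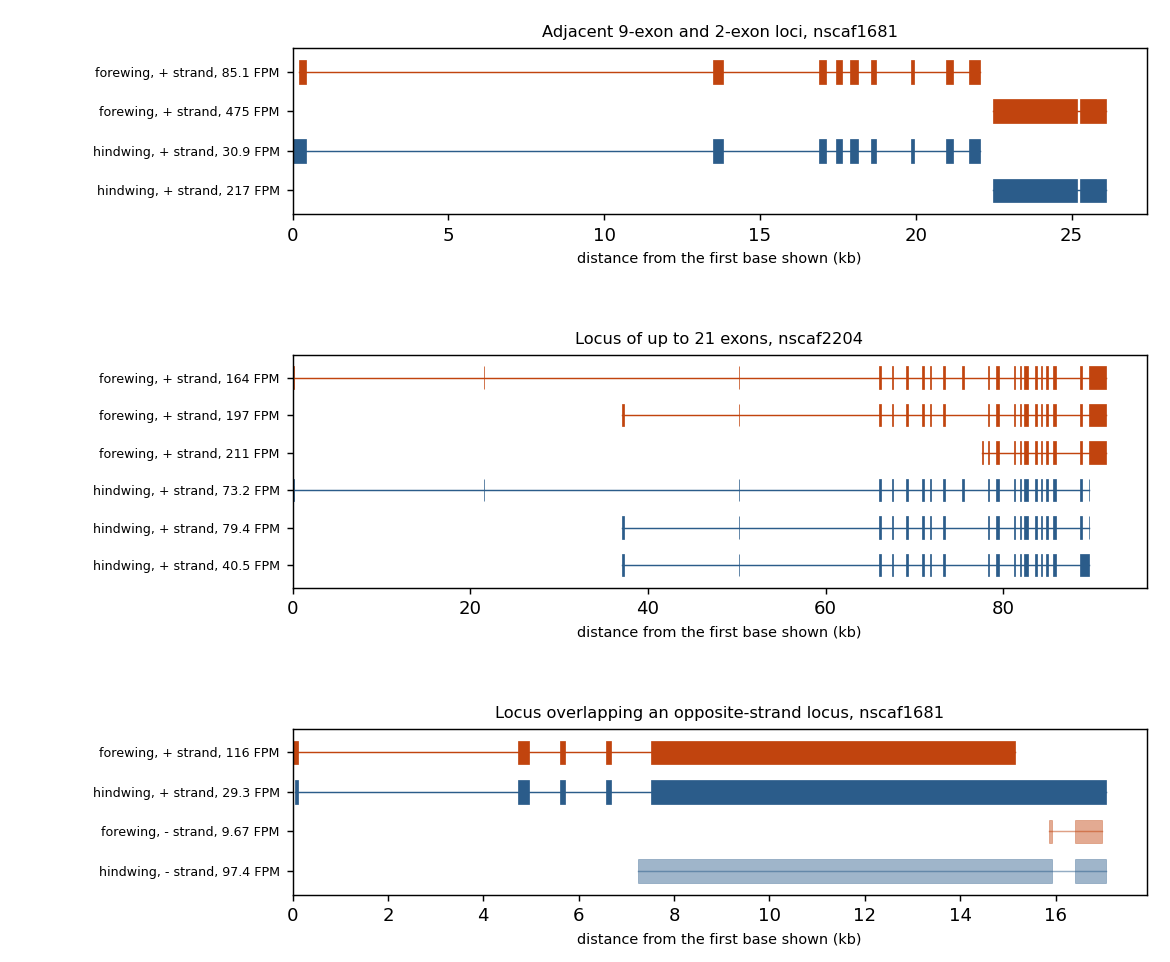
Assembled transcripts of 3 stretches, with boxes for exons, lines for introns, the distance from the first base shown (kb) on the x axis, and orange for the forewing and blue for the hindwing library; labels give strand and FPM, and paler models are an opposite-strand locus. The adjacent 9-exon and 2-exon loci have like models in both libraries, the 21-exon locus has a longer last exon in the forewing, and at the overlapping locus the opposite-strand transcript reaches across the long last exon in the hindwing alone.

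Of the 72 loci, 22 (30.6%) shared exon bases with an opposite-strand spliced locus. The share was 15.9% among the hindwing-higher loci and 11.0% among all kept loci. Because the kit does not mark strand, fragments in shared exon bases cannot be given to either strand by the reads themselves. Each of the 22 had 1 partner, and 21 of the 22 partners had more FPM in the hindwing than in the forewing, 10 of them by at least 2-fold. At 4 loci the partner was assembled in the hindwing only, and at 0 in the forewing only. Summed over both strands, 18 of the 22 pairs (81.8%) agreed within 1.2 times between the libraries by FPM. By that measure 1 was still at least 2-fold higher in the forewing. By FPKM that pair and further ones stayed at least 2-fold higher. The log2 ratios of the further pairs were -3.06 at scaffold702 from 33707, -2.09 at nscaf2589 from 2768975 and -1.95 at nscaf2767 from 1814882. They were -1.49 at nscaf2888 from 8341756, -1.13 at nscaf1681 from 5708598 and -1.03 at nscaf2888 from 8244045. The remaining pairs of the 22 did not, as at nscaf2529 from 252069 with -0.36. By FPM the pair was within 1.2 times at 85.1% of the 1138 kept loci that shared exon bases. The FPM sums of the members were thus spread about as those of such loci in general. With sums so alike, the choice of a forewing-higher locus largely fixed that its partner was higher in the hindwing. The directions of the partners of other loci were not counted. In 8 of the 22 (36.4%) the pair differed by FPM in the direction opposite to the locus, against 33.3% of those 1138.

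By FPM the clearest of these pairs was at nscaf1681:5708598-5725654 (plus strand, 5 exons in both libraries). The locus had 116 FPM in the forewing and 29.3 in the hindwing, and its minus-strand partner had 9.67 and 97.4. Their sum was 125 against 127 FPM, but by FPKM the sum stayed higher in the forewing, with a log2 ratio of -1.13. At nscaf3075:136432-139912 (minus strand) the locus had 185 and 47.0 FPM, the partner 32.7 and 179, and the sum was 218 against 226. A sum also close to equal was found at nscaf463:1478040-1489072 (plus strand), the locus of second rank. It had 66.3 FPM in the forewing and 2.36 in the hindwing, and the pair 236 and 210. Its assembled lengths were 7656 and 2529 bases with 1.68% of the exon bases in common, so its own FPM compared largely different stretches. The most abundant member by FPM, nscaf2888:8341756-8353625 (plus strand), had 1131 and 358 FPM, and its partner 0 and 385. The pair was 1.52-fold higher in the forewing by FPM, and its log2 ratio by FPKM was -1.49.

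Among the other named overlaps, nscaf2330:1602685-1608658 (minus strand) had 672 and 128 FPM and a summed 1450 against 1224. The locus nscaf2883:2616600-2635334 (minus strand, up to 11 exons) had 121 and 10.8 FPM and a summed 177 against 168. At nscaf2529:252069-263814 (plus strand) 404 and 156 FPM became 1852 and 1697, and at nscaf2589:2630965-2639876 (plus strand) 216 and 71.9 became 216 and 209. At nscaf2888:8244045-8250994 (minus strand) the locus had 83.0 FPM in the forewing and 2.24 in the hindwing, the greatest FPM ratio of all 72, and the pair had 115 and 102. Its assembled lengths were 5316 and 550 bases with 7.61% of the exon bases in common, so these FPM compared largely different stretches. By FPKM the locus had 15.6 against 4.06. In all 5 the FPM sums of the libraries lay nearer to each other than the FPM values of the locus alone. The pair that stayed at least 2-fold higher by all 3 measures was nscaf2529:4888574-4890416 (plus strand). It had 168 and 72.3 FPM alone and 168 against 82.4 in sum. At nscaf1898:8634519-8640569 (plus strand) the pair differed strongly the other way, with 27.2 and 3.32 FPM alone and 306 against 1331 in sum, since its partner was itself one of the hindwing-higher loci. The part of strand assignment in these differences was not tested.

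**Figure D4:**
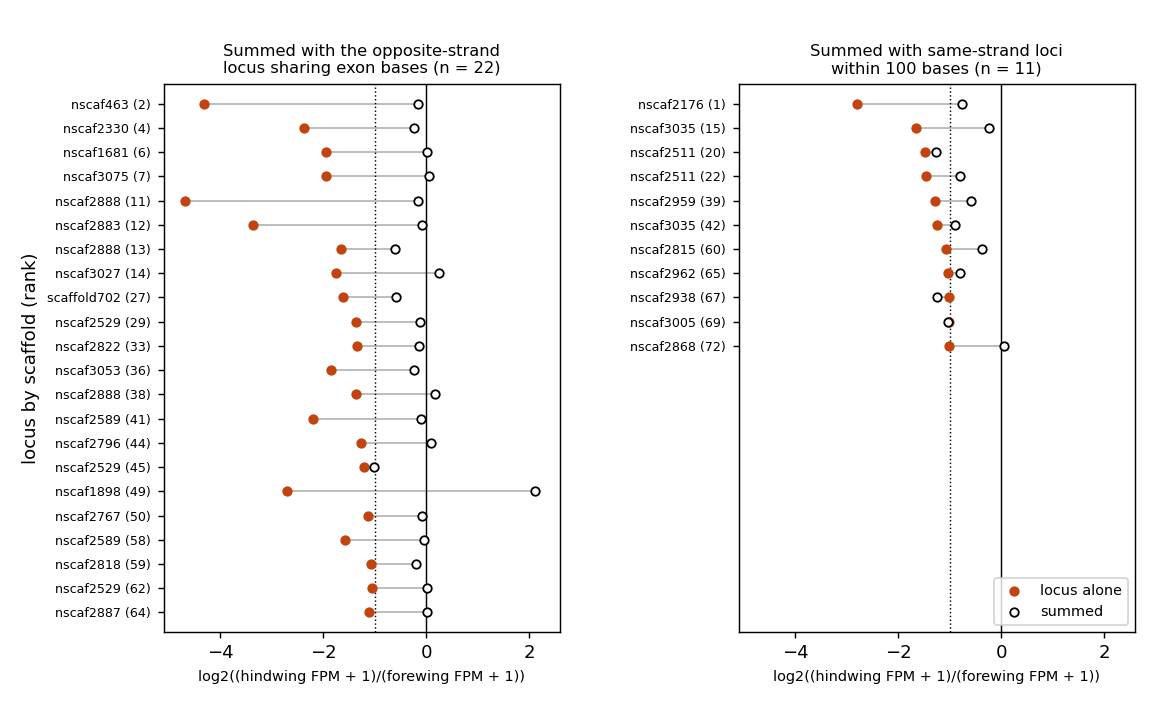
The log2 ratio of FPM, hindwing over forewing with 1 added to each, for 22 loci that share exon bases with an opposite-strand locus (left) and 11 with a same-strand locus within 100 bases (right), for the locus alone (orange) and summed with its partners (open). The dotted line marks 2-fold higher in the forewing and the solid line equality; after summing, 1 of 22 and 3 of 11 stay at or left of the dotted line.

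Another 11 loci (15.3%, against 14.4% of all kept loci and 7.25% of the hindwing-higher) shared no exon base but lay within 100 bases of a same-strand locus. Of these, 6 had under 100 estimated fragments in a library, as had 288 of the 1483 kept loci of that kind. Among the shortest was nscaf2962:985663-986178 (plus strand), with 3.64 FPM in the forewing and 1.29 in the hindwing from 135.5 and 56.0 fragments. At nscaf3035:215806-217061 (minus strand) the forewing had 2.69 FPM and the hindwing 0.563, the latter from 24.5 fragments. The member of first rank was one of them. At nscaf2176:4224425-4233532 (plus strand) the forewing assembly had 7 exons and 8.25 FPM and the hindwing assembly 3 exons and 0.333 FPM, from 307 and 14.5 fragments. A spliced plus-strand locus ended 45 bases before it with 23.3 FPM in the forewing and 17.8 in the hindwing, and together they had 31.6 against 18.2 FPM, a ratio of 1.74. At nscaf2868:607718-611914 (minus strand), with 7.93 and 3.42 FPM, same-strand loci lay 64 and 63 bases away on its sides, and the sum was 58.7 against 60.8. Summed in this way, 3 of the 11 stayed at least 2-fold higher in the forewing by all 3 measures. These were nscaf2511:2700339-2701517 (plus strand), nscaf2938:315504-318450 (minus strand) and nscaf3005:2241541-2244030 (plus strand). Their sums were, in that order, 15.4 against 5.86, 2.14 against 0.333 and 7.01 against 2.91 FPM.

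With both kinds of partner added, 43 of the 72 were at least 2-fold higher by all 3 measures. Of these 43, 39 were the lone loci, whose values could not change. Treated the same way, 52 of all kept loci (0.504%) passed in the forewing direction, and 56 of the 69 hindwing-higher loci remained so. Of those 56, 53 had no partner to add.

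In structure the forewing-higher loci were somewhat smaller than spliced loci in general. The exon count, taken as the larger of both assemblies, had a median of 4 (2 to 21), against 5 over all kept loci and 4 among the hindwing-higher. A count of 2 exons was found at 17 loci (23.6%), against 15.4% of all kept and 11.6% of the hindwing-higher loci. At least 10 exons were found at 4 loci (5.56%), against 17.5% and 17.4%. The span had a median of 5.64 kb (0.454 to 93.6), against 7398 bases over all kept loci and 6.04 kb among the hindwing-higher. At most 3 kb was spanned by 22 loci (30.6%, against 18.2% and 14.5%), and at least 50 kb by 2 (2.78%, against 6.84% and 5.80%). Of the 22 short loci, 14 were lone loci. No test was run on these shares.

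**Figure D5:**
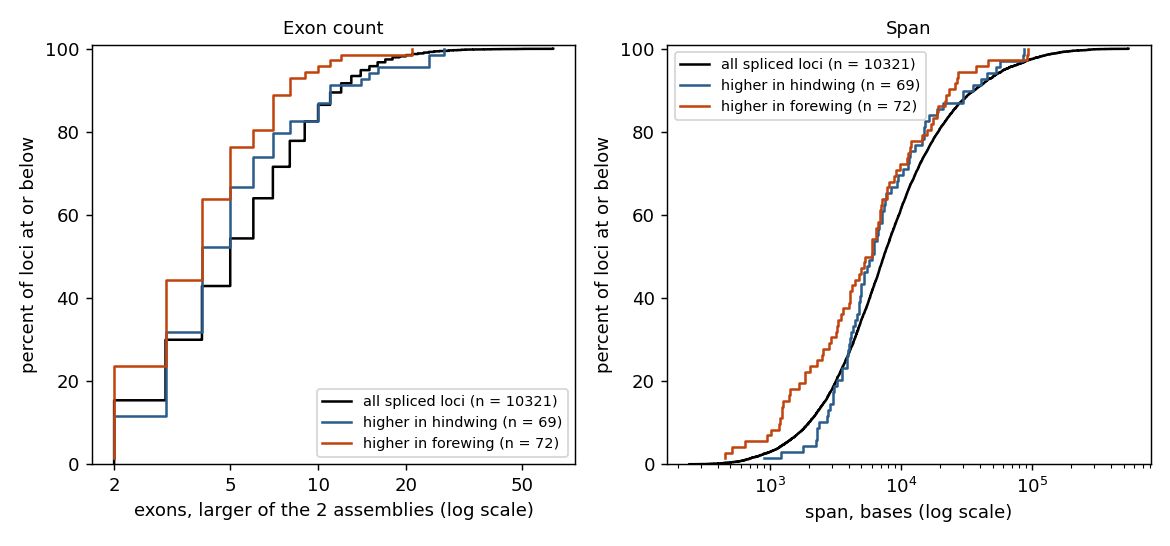
Cumulative percent of loci by exon count (left) and span in bases (right), both on log scales, for the 72 forewing-higher loci (orange), the 69 hindwing-higher loci (blue) and all 10321 kept spliced loci (black). The orange curve lies above the black one over most of the range in both plots, and 23.6% of the forewing-higher loci had 2 exons and 30.6% spanned at most 3 kb.

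The same set of introns was assembled in both libraries at 48 loci (66.7%, against 64.9% of all kept), and 52 had at least 1 intron chain in common (72.2%, against 75.4%). In 55 each library had a single chain (76.4%, against 56.2%), and in 43 of these it was the same (59.7%, against 47.4%). Where the sets differed, 19 loci had introns found only in the forewing and none only in the hindwing, 2 the reverse, and 3 had introns particular to each. These were 26.4%, 2.78% and 4.17% of the 72, against 17.6%, 10.4% and 7.07% of all kept loci. Among the hindwing-higher loci the corresponding counts were 9, 14 and 8 of 69. The forewing had more exons than the hindwing at 16 loci (22.2%, against 19.0% of all kept) and fewer at 4 (5.56%, against 9.54%). The libraries had unequal numbers of fragments at each of these loci by selection, with 14 loci under 100 fragments in the hindwing, and the part of this in the counts was not tested.

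The assembled length agreed within 1.2 times at 33 loci (45.8%, against 61.2% of all kept and 58.0% of the hindwing-higher), was longer in the forewing at 19 and longer in the hindwing at 20. At nscaf3027:760984-787545 (minus strand) the forewing had a 2-exon transcript and the hindwing a 12-exon one. They shared 1.24% of their exon bases and no intron, so 147 against 43.0 FPM compared different stretches.

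Where an intron chain was in both assemblies, its own level was compared. At 43 of the 52 it was the only chain in each library, so that its level was mostly that on which the locus had been selected. In 44 of the 52 loci the shared chains alone were at least 2-fold higher in the forewing by all 3 measures, and 24 of those 44 were also lone loci. At the other 8 loci the shared chains were below 2-fold by at least 1 measure. The locus nscaf2889:12819-16890 (plus strand) had 173 FPKM in the forewing and 12.5 in the hindwing, but 86.5% of its forewing midpoint was a 3-exon form of 380 bases found in the forewing only. Its shared 4-exon chain had 34.3 FPM in the forewing and 22.8 in the hindwing. At nscaf2204:2474604-2489118 (plus strand) the shared 5-exon chain had 57.7 FPM in the forewing and 68.9 in the hindwing. By FPKM it had 60.5 against 32.5, so at this locus the measures differed in direction. The rest of the 269 forewing FPM of this locus was an unspliced transcript of 4094 bases overlapping the end of the chain. It had 211 FPM, and the hindwing assembly had no counterpart for it. At nscaf2330:1602685-1608658 the shared 2-exon chain had 128 FPM in both libraries, and a 3-exon form with 544 FPM was found in the forewing only. At nscaf2529:3068803-3075275 (plus strand) the shared 5-exon chain had 23.1 FPM in the forewing and 47.8 in the hindwing over transcripts of 515 and 3969 bases, while its FPKM was 44.7 against 11.96, so the 2 measures gave opposite directions. An intron of the forewing lay wholly inside a hindwing exon at 3 loci (4.17%, against 6.03% of all kept loci). The reverse was found at 0, against 4.08% of all kept loci.

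The greatest number of forms was at nscaf2903:375623-393168 (plus strand), a lone locus with 5 intron chains in the forewing, 2 in the hindwing and none in common. It had 59.1 FPM in the forewing and 18.9 in the hindwing. By contrast, nscaf2815:1689891-1696547 (minus strand) had 3 forewing and 2 hindwing chains with both hindwing chains shared. Its 3-exon chain had 28.2 against 15.8 FPM and its 4-exon chain 20.9 against 10.5, so the order of the 2 chains was the same in both buds.

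The 72 loci were spread over 53 of the 591 scaffolds with a kept locus. A single member was found on 41 scaffolds, 2 on 6, and at least 3 on 6. The most were 4 on nscaf2529, among 128 kept loci. Only the adjacent pair of nscaf1681 had a member as the next kept locus within 50 kb, whereas 10 hindwing-higher loci had a like neighbour. The log2 FPM ratio of the next kept loci had a median of -0.03 over 126 neighbours, of which 69 were below 0, 6 were 2-fold higher in the forewing and 6 in the hindwing. The 6 either way were 4.76%, against 1.85% and 1.63% of the neighbours of all kept loci. The quartiles were also wider, at -0.41 and 0.23 against -0.16 and 0.17. The neighbours include opposite-strand loci that share exon bases with a member, and all 6 that were 2-fold higher in the hindwing were such loci. The 6 higher in the forewing include the adjacent pair of nscaf1681. A kept neighbour lay within 1 kb of 42 members (58.3%, against 46.7% of all kept loci), and 15 held another locus in their introns (20.8%, against 14.7%).

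Among the 6 scaffolds with at least 3 members the highest share was on nscaf1071, where 3 of 26 kept loci (11.5%) were members. This stretch was chosen after its values were seen. From nscaf1071:346865-348108 (minus strand) to nscaf1071:386650-387599 (plus strand) the kept loci were 4 in a row, each with 2 exons in both libraries and a span of at most 1.24 kb, and all had more FPM in the forewing. The first had 34.5 FPM in the forewing and 7.18 in the hindwing. The second, from 353640, had 59.6 and 12.2, the third, from 359234, had 62.5 and 30.3, and the fourth had 115 and 49.5. Only the first and the fourth passed by all 3 measures. By FPKM the 4 loci had 94.0 against 33.5, 166 against 82.5, 172 against 90.6, and 289 against 125. The kept loci before and after this row had 7.54 against 5.85 and 2.35 against 1.76 FPM. Whether the 4 are near-identical copies that share reads was not tested.

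The members just inside the threshold were nscaf2868:607718-611914, nscaf1690:6289537-6290955 (minus strand) and nscaf2589:3193722-3217145, each with a smallest log2 ratio of -1.01. Their FPM was 7.93 against 3.42, 13.2 against 3.88 and 121 against 59.5. Just outside were nscaf463:78096-127890 (minus strand, 10 exons, 284 against 142 FPM, log2 ratio -0.999 by FPM), the second locus of the row on nscaf1071 (-0.998 by FPKM), and nscaf2964:2742784-2744757 (plus strand, 309.8 against 155 FPM, -0.99 by FPM).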

How the data were processed

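The deposited transcript assembly of each wing bud was used. Per the study's methods the authors trimmed low-quality reads, mapped them with TopHat and assembled transcripts with Cufflinks, version 2.1.1 in the submitters' processing notes. The genome build was not given in the sources used here, and coordinates are 1-based as deposited. The deposited FPKM and the bounds of its interval come from each library alone, and the deposited score column entered no result.

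FPM was the interval midpoint times transcript length in kb. Fragments were FPM times an estimated depth, at which 96.5% of 13353 hindwing and 96.1% of 8818 forewing bounds of single-exon transcripts below 30 fragments were whole within 0.05. Intervals cover counting error only, since PCR copies were not marked. A transcript share within a locus is a share of the summed midpoint. A pseudocount of 1 was used, so a ratio of low values is understated, and no scaling was applied.

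The named loci were those 4-fold by all 3 measures, the first 10 by smallest ratio, the extremes of FPM, exon count and span, adjacent members, members with differing or overlapping forms and those at the threshold, and others were named after their values were seen. The members and lists were chosen with earlier results of these data known. Lists of Hox, patterning, hormone, cuticle and cell type genes gave no result, since 0 loci matched the available gene table, which is of a different assembly. No locus sequence is shown. The code was tested on simulated data and run with matplotlib 3.10.9, pandas 2.3.3 and numpy 2.4.6 in Python 3.11.15.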

Additional observations from a re-analysis of the deposited data

How the results depend on the processing

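The count of 72 was 59 to 77 with the ratios centred or rescaled to 1000000 per library, with a minimum of 0, 1 in both or 5 FPKM, and with 50 shared bases to join. It was 51 when loci were joined on either strand, 50 without loci sharing exon bases, 48 among loci with the same introns and 52 when loci were summed with their partners. It moved to 126 with a pseudocount of 0.1 and 29 with 5, 152 without single-exon transcripts (68 of the 72 among them), 114 by the most abundant transcript, and 183 by shared intron chains alone. By FPKM, midpoint or FPM alone it was 562, 486 and 186, and at 4-fold 4. Among loci of like assembled length it was 33, and among loci with no partner of either kind 39. The partner settings, the shared chains and a minimum of 100 fragments in both libraries (58) were added after the data were seen. The count of 2 members with a neighbouring member was the same within 10 kb and at any distance.

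Of 329 ratios of the 26 named loci under these settings, 9 changed sign. Joined on either strand, the log2 ratio was 0.015 at nscaf1681 from 5708598, 0.055 at nscaf3075 from 136432, 0.25 at nscaf3027 from 760984 and 0.36 at nscaf2589 from 2630965. Summed with partners it was 0.015, 0.25 and 0.36 at the nscaf1681, nscaf3027 and nscaf2589 loci and 0.44 at nscaf2868 from 607718. At each of these at least 1 other measure stayed below 0 in sum. The ratio by FPKM was -1.13 at the nscaf1681 locus and -0.09 at the nscaf3027 locus. By FPM it was -0.045 at the nscaf2589 locus, and by midpoint -0.045 at the nscaf2868 locus. By the shared chain alone it was 0.0062 at nscaf2330 from 1602685. No paired analysis was possible because either bud was sequenced as 1 library. With 1 library per bud and 14 members under 100 hindwing fragments, depth and the lack of replicates limit what the values can show.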
